A study of Mus musculus with 2 samples.

Results

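The WNT genes examined here are the 43 protein-coding genes, of 21951 in the GENCODE M21 annotation, that encode the secreted WNT ligands, their receptors and the main effectors of the pathway. The rule that picks them uses the gene symbol and no measured value: every Wnt gene (19 ligands), every Fzd gene with Lrp5 and Lrp6 (12 receptors), the β-catenin gene Ctnnb1 with the scaffold genes Axin1 and Axin2 (3 genes), the TCF/LEF transcription factor genes Lef1, Tcf7, Tcf7l1 and Tcf7l2 (4 genes), the ubiquitin ligase genes Rnf43 and Znrf3 (2 genes), and Rspo1, Rspo2 and Rspo3, which encode R-spondins (3 genes). Accessible chromatin around them was mapped by DNase-seq, in which nuclei are digested with DNase I and the cut ends are sequenced. The tissue was lung, taken at an age of 14 days from males of B6CASTF1/J, the first-generation hybrid of the C57BL/6J and CAST/EiJ strains. The 2 libraries form 1 group: for replicate 1 the label names a male and no pool, and for replicate 2 it names a pool of 3 males. Their donor record is identical, and the labels do not say whether any animal is in both. A single group offers no contrast between conditions and no p-value was computed: values are given for both libraries, and the main counts, shares and medians stand beside the same over all protein-coding genes or all peaks.

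WNT proteins are lipid-modified signals that bind a Frizzled receptor together with LRP5 or LRP6. In the canonical branch this stops the complex of AXIN, APC, GSK3 and casein kinase 1 from marking β-catenin for destruction, so that β-catenin enters the nucleus and joins TCF/LEF factors on DNA. RNF43 and ZNRF3 remove Frizzled receptors from the cell surface, R-spondins block these ligases, and AXIN2, RNF43 and ZNRF3 are themselves textbook products of pathway activation that damp it. In the lung the pathway is known for its part in branching of the airways, in signals between mesenchyme and epithelium, and in the upkeep of alveolar type 2 cells.

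The authors' lists held 94786 peaks in replicate 1 and 77403 in replicate 2, of which 73.6% and 89.8% overlapped a peak of the other library. Each peak carries the authors' own signal value, its score, on a scale that is not explained. Scores are therefore given with their percentile, the share of the library's own peaks that score the same or lower. Promoter peaks were found in both libraries at all 3 lung regulator genes used as a tissue check (Nkx2-1, Foxf1 and Tbx4), at 4 of 5 genes of alveolar type 2 cells, 3 of 4 of alveolar type 1 cells, 3 of 3 of ciliated cells, 4 of 4 endothelial genes, 3 of 3 fibroblast genes and 2 of 3 smooth muscle genes. Of genes of immune cells that the lung also holds, 1 of 3 macrophage genes and 0 of 2 lymphocyte genes had one. The secretoglobin genes of club cells had none (0 of 2), nor had hepatocyte genes (0 of 3) and heart muscle genes (0 of 3), and 1 of 3 neuron genes had one. Over all protein-coding genes the share was 63.5%, so these small counts are a rough check only. The authors also deposited a larger peak list. There Lamp3 (type 2 cells), Aqp5 (type 1 cells), Acta2 (smooth muscle) and Tubb3 (neuron) had a promoter peak in both libraries as well. In unsorted tissue, a site open in few cells and a site weakly open in many cells cannot be told apart.

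Receptors and effectors had promoter peaks throughout, and about as many ligands lacked one in both libraries as had one in both. All 12 receptors, the β-catenin gene and both axin genes, all 4 TCF/LEF genes and both ligase genes had a promoter peak, meaning a peak within 1 kb of any annotated transcript 5′ end, in both libraries. Of the 19 ligands 9 had one in both libraries, Wnt2b and Wnt5a in replicate 1 only, and 8 in neither: Wnt2, Wnt3, Wnt3a, Wnt6, Wnt8a, Wnt8b, Wnt10a and Wnt16. The 3 R-spondin genes had one in replicate 1 only. In all, 35 WNT genes (81.4%) had a promoter peak in replicate 1 and 30 (69.8%) in replicate 2, against 66.6% and 64.1% of all protein-coding genes. The 30 of replicate 2 were the 30 with one in both libraries, against 63.5% of all genes, and 8 of 43 WNT genes had none in either, against 32.9% of all genes. In the authors' larger peak list, promoter peaks were in both libraries at 12 of the 19 ligands, all 12 receptors and all 3 R-spondin genes, so the count of ligands depends on the list. The overall share is near the background in replicate 2, while the roles differ widely around it.

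**Figure D1:**
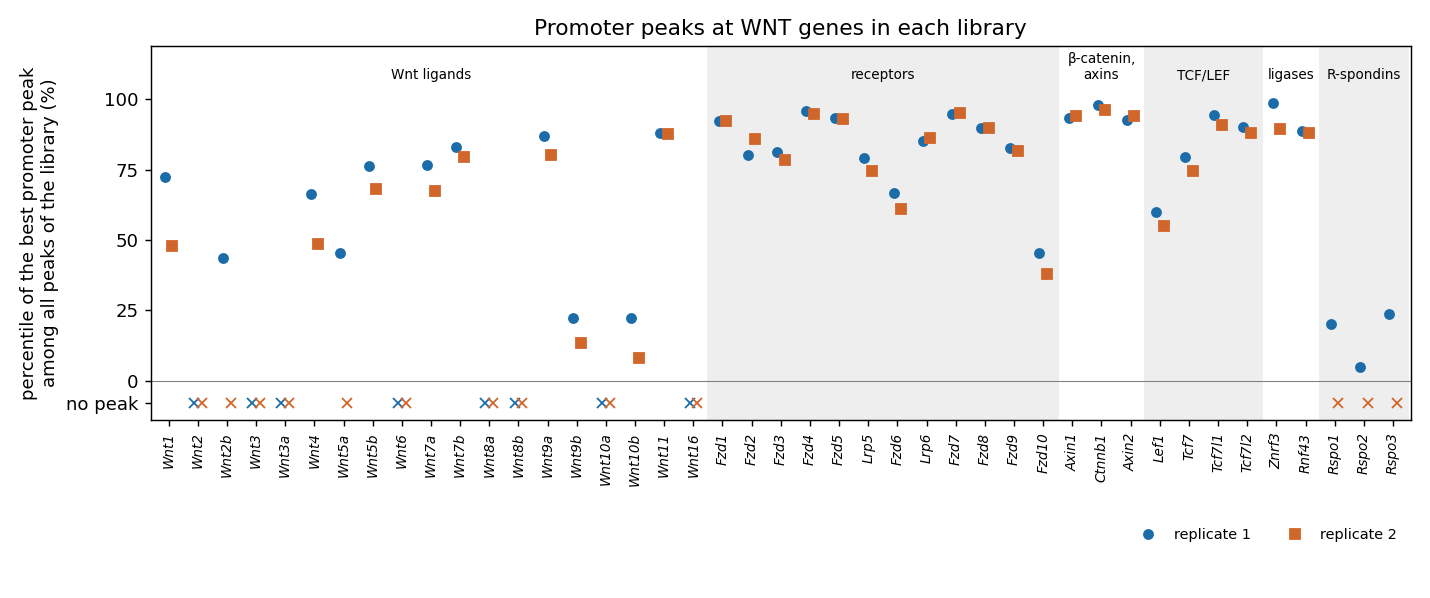
The percentile of the highest-scoring promoter peak of each WNT gene among all peaks of its library (y axis, %) is shown for replicate 1 (circles) and replicate 2 (squares), and crosses mark genes without a promoter peak. All 12 receptors have a peak in both libraries, 8 of 19 ligands have none in either, and the 3 R-spondin genes have a low peak in replicate 1 only.

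Where WNT promoters were open they ranked lower than the usual open promoter. The median percentile of the best promoter peak was 81.2 in replicate 1 and 83.7 in replicate 2 for WNT genes with one, against 89.9 and 89.7 for all such protein-coding genes. Ligands were lowest among the roles with a peak in both libraries, at 72.3 and 67.4. Receptors had medians of 83.9 and 86.0, TCF/LEF genes 84.9 and 81.3, β-catenin and the axins 93.2 and 94.2, and the ligase genes 93.8 and 88.7. These are medians over few genes, and the values of the genes themselves follow.

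Among the ligands, Wnt11 had the highest-ranking promoter peak, which lay next to an inner start. The Wnt11 peak over the outermost 5′ end was at percentile 64.2 in replicate 1. Wnt11, a ligand known mostly for branches of the pathway that do not use β-catenin (chr7:98835112-98855195), scored 5.47 in replicate 1 (percentile 88.0) and 5.42 in replicate 2 (87.8) at a peak 2968 bp inside the outermost annotated 5′ end, next to an inner start. Wnt9a (chr11:59306928-59333552) scored 5.08 (86.9) and 3.45 (80.4). Wnt7b, an epithelial ligand that signals to the lung mesenchyme (chr15:85535437-85582473), scored 4.05 (83.2) and 3.33 (79.6). The peak of Wnt7b lay upstream of its 5′ end, at −757 bp in replicate 1 and −747 bp in replicate 2. Wnt5b, Wnt7a and Wnt1 followed at middle ranks. Wnt5b scored 2.85 (76.2) and 2.15 (68.0), Wnt7a 2.92 (76.7) and 2.10 (67.4), and Wnt1, the founding member of the family, 2.40 (72.3) and 1.29 (47.8). The best promoter peak of Wnt5b lay next to an inner annotated start, 95087 bp inside the gene model, which spans chr6:119432531-119544347. Which start is in use was not measured. The remaining 3 ligands with a promoter peak in both libraries were Wnt4 at percentiles 66.3 and 48.6, Wnt9b at 22.3 and 13.3, and Wnt10b at 22.3 and 8.14.

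Wnt2b and Wnt5a had a promoter peak in replicate 1 only, of middle rank. The best promoter peak of Wnt2b in replicate 1 was at percentile 43.7 and that of Wnt5a at 45.5, and replicate 2 had none in the smaller list. The Wnt5a peak lay 5010 bp inside the outermost 5′ end, in an intron. With the outermost 5′ end alone, Wnt5a had a promoter peak in neither library. The deposited table of cut rates, which lists runs of bases at a false discovery rate (FDR) of 0.05 or below, shows signal at both promoters in both libraries: the lowest FDR at Wnt2b was 3.61e-07 in replicate 1 and 0.00155 in replicate 2, and at Wnt5a 1.73e-07 and 0.0216. The authors' larger peak list held a promoter peak of both genes in both libraries. WNT5A is known as the mesenchymal ligand that limits outgrowth of the lung.

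The 8 ligands without a promoter peak were not all alike. In the larger list Wnt16 had a peak in both libraries, Wnt2, Wnt3 and Wnt3a in replicate 1 only and Wnt6 in replicate 2 only, and Wnt8a, Wnt8b and Wnt10a in neither. The lowest FDR of any base was 0.000944 and 0.00596 at Wnt16, and 0.00243 and 0.0493 at Wnt2. It was 0.0248 at Wnt3 and 0.0303 at Wnt3a in replicate 1, with no listed base in replicate 2, while Wnt6 had none in replicate 1 and 0.0140 in replicate 2. Wnt8a, Wnt8b and Wnt10a had no listed base in either library. Listed bases were thus found at 4 (50%) and 3 (37.5%) of these 8 promoters, against 12.98% and 8.07% of the 7212 protein-coding genes without a promoter peak in either library. At Wnt2, a ligand of the early lung mesenchyme (chr6:17988940-18030585, minus strand), a peak common to both libraries stood just outside the promoter window. Its centre was at −1.245 kb from the 5′ end in replicate 1 and −1.295 kb in replicate 2, at percentiles 59.2 and 64.8.

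WNT promoters were richer in CpG than most, and in the classes of CpG content from 0.4 to 0.8 a smaller share of them had a peak. The WNT genes without a promoter peak in both libraries were all ligands or R-spondin genes. Receptor and effector genes had one in both libraries whatever their class, so the lower shares come from the ligands and R-spondins. The ratio of observed to expected CpG within 1 kb of the outermost 5′ end had a median of 0.689 over WNT genes, against 0.474 over all protein-coding genes. In the lowest class, below 0.4, none of 3 WNT genes had a promoter peak in both libraries (Wnt8a, Wnt8b and Wnt10a), against 28.2% of 9502 genes, too few WNT genes to read a share. In the class of 0.4 to 0.6 it was 5 of 9 WNT genes (55.6%), against 84.9% of 4992 genes. From 0.6 to 0.8 it was 15 of 21 (71.4%), against 93.8% of 5651. At 0.8 and above all 10 WNT genes had one, among them Wnt4, Wnt9a and Axin2, against 96.4% of 1793 genes. The ratio is taken at the outermost 5′ end, while for WNT genes and all genes alike the peak may lie at an inner one. With the outermost 5′ end alone, Wnt5b in the highest class no longer had a peak in both libraries. The same held for Ctnnb1 and Wnt10b in the class of 0.4 to 0.6. Wnt3, Wnt3a and Wnt6 were without a promoter peak in either library although their ratios were between 0.6 and 0.8, a class in which 4.21% of all genes had none.

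**Figure D2:**
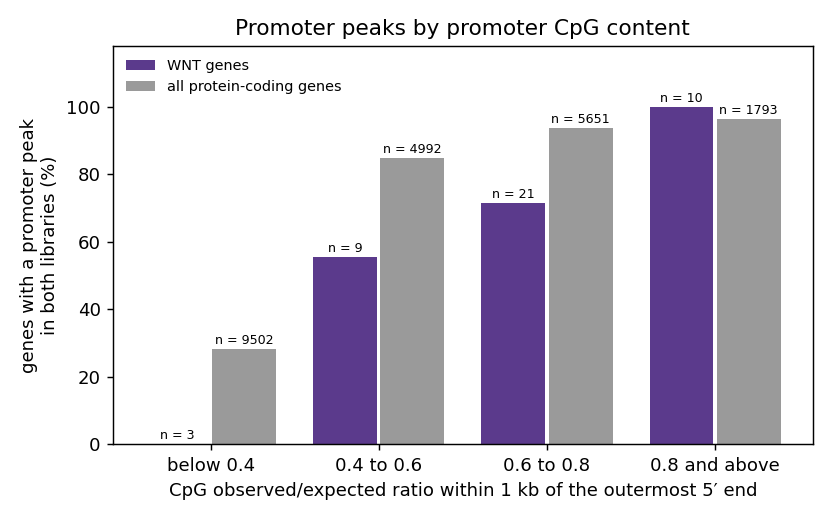
The share of genes with a promoter peak in both libraries (y axis, %) is shown by class of promoter CpG ratio (x axis) for WNT genes (left bars) and all protein-coding genes (right bars), with the number of genes above each bar. In the class of 0.6 to 0.8 the share is 71.4% of 21 WNT genes and 93.8% of 5651 protein-coding genes.

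Ligand genes without a promoter peak in the smaller list had distal peaks around them, defined as peaks more than 1 kb from the transcript 5′ ends of every protein-coding and long noncoding gene and counted from 20 kb before to 20 kb after the gene. The 8 ligands without a promoter peak had a median of 6 distal peaks in replicate 1 and 4.5 in replicate 2, against 0 and 0 for all protein-coding genes without one. The 2 sets are unlike: median length was 17.1 kb for these ligands against 7.79 kb, and the median CpG ratio 0.434 against 0.170. The part of these differences in the distal counts was not tested. The 9 ligands with a promoter peak in both libraries had medians of 5 and 4. Wnt3a (chr11:59248033-59290752) had 9 distal peaks in each library, of which 8 were shared, Wnt6 and Wnt10a had 6 and 6, Wnt8b 6 and 5, and Wnt3 6 and 4. Wnt5b had most among the ligands, with 13 and 11, of which 10 were shared, and Wnt7b had 9 and 9, of which 8 were shared. Of the ligand genes, 8 lie in 4 pairs so close that their windows overlap: Wnt6 and Wnt10a are 6.19 kb apart, Wnt1 and Wnt10b 11.7 kb, Wnt3a and Wnt9a 16.2 kb, and Wnt3 and Wnt9b 24.3 kb. Part of their peaks is therefore counted for both genes of a pair, 4 of the 11 peaks at Wnt3a and Wnt9a in each library, for example. Likewise, 4 of the 8 peaks at Wnt6 and Wnt10a in each library are counted for both, and both genes are among the 8 ligands above.

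Over all 43 WNT genes, 41 (95.3%) had at least 1 distal peak in each library, against 73.1% of protein-coding genes in replicate 1 and 68.9% in replicate 2. The median was 4 and 3 peaks, against 2 and 1. WNT genes were longer, with a median length of 26.6 kb against 17.4 kb, and per 100 kb of window the medians were 4.53 and 4.35, against 2.46 and 2.11. Gene length and the number of distal peaks went together with a Spearman rho of 0.469 and 0.493 across the 43 WNT genes, and 0.444 and 0.426 across all genes, correlations across genes that share libraries. Fzd3 and Fzd10 were the 2 WNT genes with none.

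**Figure D3:**
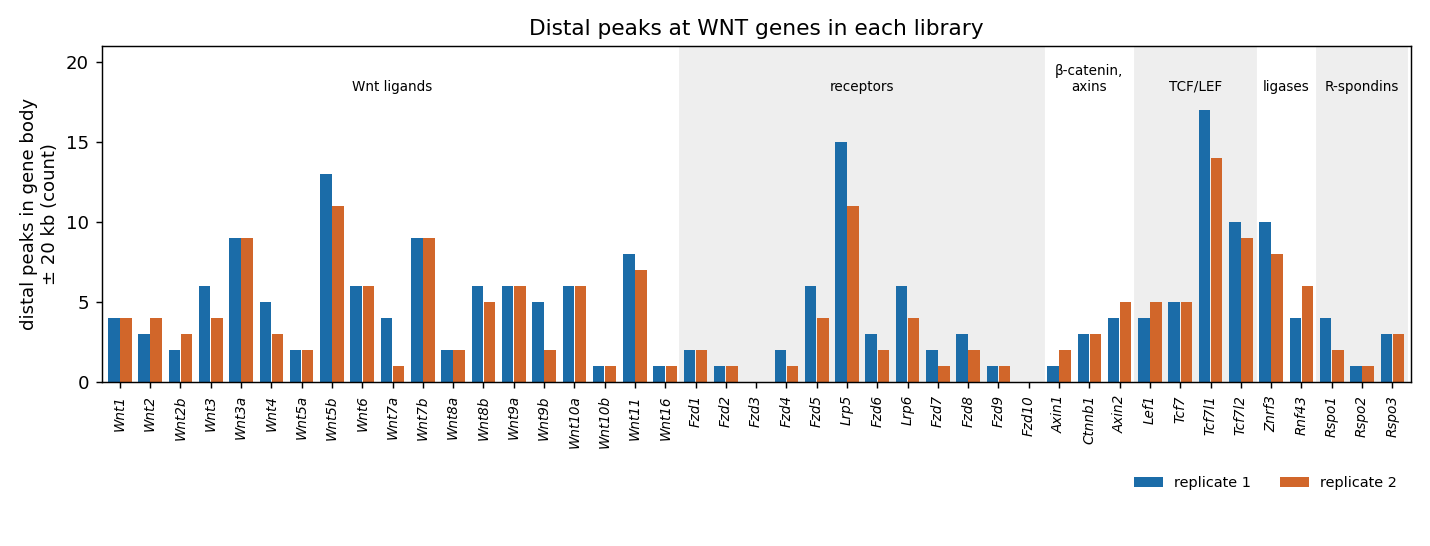
The number of distal peaks within each WNT gene and 20 kb on both sides (y axis, count) is shown for replicate 1 (left bars) and replicate 2 (right bars), grouped by role. Tcf7l1 has the most, 17 and 14, followed by Lrp5 with 15 and 11, and Fzd3 and Fzd10 have none.

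The highest-ranking distal peaks lay at ligands, 2 of which had no promoter peak in replicate 2. Of the 40 WNT genes with a shared distal peak, 3 had one above the 90th percentile in both libraries. The same share over all protein-coding genes was not computed, so whether 3 of 40 is many or few is not known. At Wnt2b it was 6.24 kb upstream (chr3:104968081-104968240 in replicate 1), with scores of 10.1 (95.7) and 9.53 (94.1). At Wnt10a it was 16.8 kb past the 5′ end and downstream of the gene (chr1:74808221-74808400), with 9.42 (95.01) and 6.63 (90.3). At Wnt11 it was 19.7 kb upstream (chr7:98815281-98815500), with 7.68 (92.7) and 7.32 (91.4). The promoters of Wnt2b and Wnt10a were thus weak or without a peak beside distal peaks in the top decile. For 9 of the 40 genes the best shared distal peak lay nearer the 5′ end of another protein-coding gene, and for 4 (Wnt1, Lef1, Fzd9 and Axin1) it lay inside another gene, so that its link to the WNT gene is by position only.

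The CTCF consensus, bound by the factor known for anchoring chromatin loops, stood in peaks beside several ligands and several receptor and TCF/LEF genes. Its letters, CC, any 3 bases and AGGGGGC, were searched on both strands in every peak, and 16 matches at WNT genes lay inside a peak of both libraries, 3 in promoter peaks and 13 in distal peaks. They lay at ligands, among them Wnt5b in its best promoter peak, and also at Fzd8, Fzd9, Lrp5, Lef1, Tcf7, Tcf7l1 and Tcf7l2. As examples, the matches at the Wnt1 promoter (chr15:98789660-98789689), between Wnt3 and Wnt9b (chr11:103758928-103758957) and in an intron of Wnt5a (chr14:28507699-28507728) are printed with the consensus in capitals, on the strand that holds it.
Wnt1 promoter: gaccagcatCCGCCAGGGGGCgcggagaca
Wnt3 and Wnt9b: ccccgctgaCCAGCAGGGGGCgctcctgca
Wnt5a: tccagatggCCAACAGGGGGCagccggcac
The Wnt1 match lay at −0.183 kb from the 5′ end, in the promoter peak described above. The match between Wnt3 and Wnt9b lay in a peak at percentiles 86.3 and 71.4, which was the best shared distal peak of both genes. The Wnt5a match lay 2.96 kb inside the gene, in a peak at 76.5 and 75.3. Footprints, short stretches within open DNA that the authors list as protected from cutting, covered all 3 of these matches in both libraries. Of the 16 matches a footprint overlapped 16 in both libraries and covered 13 (81.3%), against 91.2% overlapped and 78.4% covered among the 3005 matches in all peaks common to both libraries. In distal peaks at WNT genes the consensus was found in 16 of 193 peaks in replicate 1 (8.29%) and 13 of 167 in replicate 2 (7.78%), against 4.37% and 4.49% of all distal peaks.

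All receptor promoters were open, with a wide range of scores. Fzd4, the receptor known for its part in vessel growth (chr7:89404355-89413134), ranked highest with a score of 10.4 in replicate 1 (percentile 96.0) and 10.3 in replicate 2 (94.8). Its 5′ end is 133 bp from that of Tmem135, so that its promoter peak belongs to both genes. Fzd7 scored 9.36 (94.9) and 10.7 (95.2), Fzd5 8.12 (93.4) and 8.69 (93.2), and Fzd1 7.40 (92.3) and 8.14 (92.4). Fzd8 scored 6.18 (89.9) and 6.41 (89.9), and Lrp6, the LRP co-receptor that starts the canonical branch, 4.52 (85.1) and 4.81 (86.2). For these 6 genes the ranks in the 2 libraries were close together. The other receptors were Fzd9 at 82.8 and 81.7, Fzd3 at 81.2 and 78.6, Fzd2 at 80.3 and 85.7, Lrp5 at 79.1 and 74.7, and Fzd6 at 66.8 and 61.2, and the lowest was Fzd10 at 45.2 and 37.9. Receptors had medians of 2 and 1.5 distal peaks, close to the 2 and 1 of all protein-coding genes, and of 4.13 and 2.43 per 100 kb of window, against 2.46 and 2.11. Lrp5 had most among them, with 15 and 11 over a gene of 101.7 kb (chr19:3584828-3686564). Of these 10 were shared, the best 5.08 kb inside the gene at percentiles 86.6 and 87.3, and 2 held a CTCF match. Fzd5 followed with 6 and 4, of which 4 were shared, the best 15.5 kb upstream at 70.8 and 69.6.

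The Lrp6 promoter peak held a match to CTTTGAT, the core consensus of TCF/LEF factors, at −387 bp from the 5′ end. The match and 20 bases on each side (chr6:134567329-134567375) are printed on the strand of the gene with the consensus in capitals.
Lrp6 promoter: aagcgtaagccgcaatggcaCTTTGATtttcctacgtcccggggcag
A footprint overlapped part of it in replicate 2 and none did in replicate 1.

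Ctnnb1 and the axin genes had strong promoters. Ctnnb1, the β-catenin gene (chr9:120929216-120960507), scored 12.95 in replicate 1 (percentile 97.8) and 11.8 in replicate 2 (96.1). Its peak lay 4174 bp inside the outermost of 15 annotated 5′ ends, at an inner start. Axin1, the standing scaffold of the destruction complex, scored 8.03 (93.2) and 9.68 (94.2). Axin2, its close relative that is switched on by the pathway (chr11:108920349-108950783), scored 7.57 (92.5) and 9.54 (94.1). Axin2 had 4 promoter peaks in replicate 1 and 3 in replicate 2, a row of open sites from its 5′ end into an intron. The ranks of these sites fell with distance, at 92.5 and 94.1, then 85.0 and 86.7, then 63.5 and 55.4, and a site 5.06 kb inside the gene ranked 94.2 and 86.0.

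The Axin2 promoter peaks held 2 matches to the TCF/LEF consensus in both libraries. The match at +81 in the 5′ untranslated exon is shown with 11 bases on each side (chr11:108920416-108920444) and the match at +886 in an intron with 20 (chr11:108921212-108921258), both on the strand of the gene and with the consensus in capitals.
Axin2 +81: agccggctgcgCTTTGATaaggtcctggc
Axin2 +886: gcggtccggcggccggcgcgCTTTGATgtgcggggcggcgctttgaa
The +81 match was covered by a footprint in both libraries and the +886 match was under a footprint in neither.

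Of the TCF/LEF genes, Tcf7l1 and Tcf7l2 had the higher-ranking promoters. Tcf7l1, which encodes TCF3, known mainly as a repressor (chr6:72626378-72789254), scored 9.02 in replicate 1 (percentile 94.5) and 7.10 in replicate 2 (91.0). It also had the most distal peaks of any WNT gene, 17 and 14, of which 13 were shared, and a CTCF match at −0.375 kb from its 5′ end. Tcf7l2, which encodes TCF4 (chr19:55741820-55933654), scored 6.36 (90.3) and 5.59 (88.2) and had 10 and 9 distal peaks. Tcf7, which encodes TCF1, best known from T cells (chr11:52252371-52283014), scored 3.34 (79.4) and 2.67 (74.5). Lef1, an activator that is itself a known target of the pathway, scored 1.58 (59.96) and 1.51 (54.8) at a peak 1969 bp inside the outermost 5′ end in replicate 1. Both promoter ranks of Lef1 were below those of the other 3 factors.

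Tcf7 held 2 matches to the TCF/LEF consensus in peaks of both libraries. The match at −357 bp (chr11:52283348-52283394) lay in the promoter peak. The match at −1448 bp lay in a separate peak with scores of 4.64 (85.5) and 4.86 (86.4), above the promoter peak in rank. It is printed within the whole peak of replicate 2 (chr11:52284341-52284540), since a footprint covered it in both libraries. Both sequences are on the minus strand, that of the gene, with the consensus in capitals.
Tcf7 −357: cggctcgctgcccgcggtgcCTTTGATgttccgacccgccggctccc
Tcf7 −1448: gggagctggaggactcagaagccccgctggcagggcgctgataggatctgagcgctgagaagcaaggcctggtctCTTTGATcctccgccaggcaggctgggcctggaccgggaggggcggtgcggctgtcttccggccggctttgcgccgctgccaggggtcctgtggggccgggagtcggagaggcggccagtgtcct
At −357 a footprint overlapped the match in both libraries and covered it in neither.

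**Figure D4:**
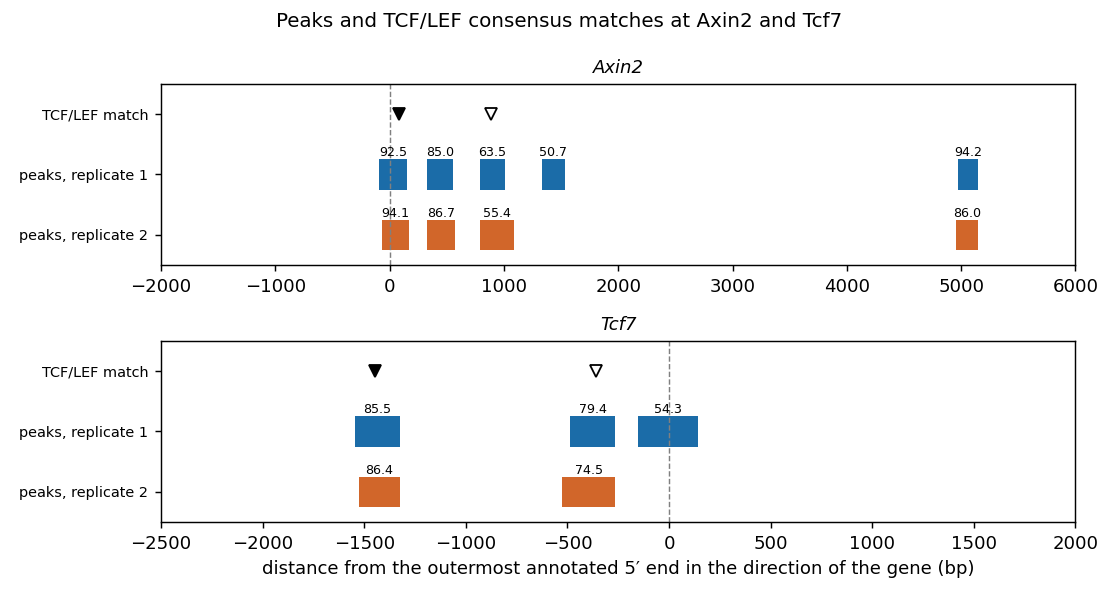
Peaks of each library at Axin2 and Tcf7 are drawn to scale by distance from the outermost 5′ end (x axis, bp), with their percentile above each box. Triangles mark TCF/LEF matches, filled where a footprint covers the match in both libraries (Axin2 +81 and Tcf7 −1448) and open elsewhere.

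Both ligase genes were open at the 5′ end and carried a TCF/LEF match in an intron. Znrf3 (chr11:5276324-5444847) scored 15.3 in replicate 1 (percentile 98.8), the highest rank of any WNT promoter there, and 6.22 in replicate 2 (89.5). Rnf43 (chr11:87662722-87735539) scored 5.78 (88.8) and 5.48 (87.9). The match in Znrf3 lay 147.6 kb inside the gene in a peak at percentiles 52.5 and 37.9, covered by a footprint in replicate 1 only (chr11:5297269-5297315). That in Rnf43 lay 26.8 kb inside the gene in its best shared distal peak, at 83.3 and 82.0, with no footprint over it (chr11:87689533-87689579). Both are printed on the strand of the gene with the consensus in capitals.
Znrf3 intron: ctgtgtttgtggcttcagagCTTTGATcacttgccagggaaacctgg
Rnf43 intron: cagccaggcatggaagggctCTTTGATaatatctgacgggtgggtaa

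In all, 7 TCF/LEF matches at 5 WNT genes (Axin2, Tcf7, Lrp6, Rnf43 and Znrf3) lay in peaks of both libraries. Promoter peaks at WNT genes held the consensus in 5 of 90 peaks in replicate 1 (5.56%) and 4 of 61 in replicate 2 (6.56%), against 1.41% and 1.38% of all promoter peaks. In distal peaks it was 5 of 193 (2.59%) and 4 of 167 (2.40%), against 2.06% and 2.1%. A footprint covered 2 of the 7 matches in both libraries and overlapped 3, against 4.23% covered and 18.1% overlapped of the 1136 matches in all peaks common to both libraries. The 4 or 5 peaks behind each share come from few genes, so each gene weighs heavily, and a match or a footprint is a position and does not show which factor was bound.

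Other consensus sequences were searched on both strands in the same peaks, and many of their shares rest on few peaks. The KLF/SP consensus CCCCGCCC was in 27.8% and 34.4% of promoter peaks at WNT genes, against 21.6% and 23.2% of all promoter peaks. The ETS consensus CCGGAAG was in 3.33% and 3.28% of promoter peaks, against 9.44% and 10.7%, and went the other way in distal peaks, with 4.66% and 3.59%, against 2.00% and 2.19%. The TEAD consensus CATTCC was in 4.44% and 3.28% of promoter peaks, against 8.85% and 8.51%, and in 15.5% and 17.4% of distal peaks, against 12.4% and 12.5%. The AP-1 consensus TGANTCA was in 1 promoter peak at WNT genes in each library (1.11% and 1.64%), against 4.12% and 4.02%, and in 5.70% and 5.99% of distal peaks, near the 7.22% and 7.43% of all. The FOX consensus TGTTTAC was in 0 of 90 and 0 of 61 promoter peaks, against 2.16% and 2.23%, and in 2.07% and 1.80% of distal peaks, against 3.59% and 3.86%, shares at which few matches would fall in so few peaks. The NFI consensus, TTGGC and GCCAA 5 bases apart, was in no peak at a WNT gene and in 0.192% and 0.168% of all distal peaks, too rare to read in so few.

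**Figure D5:**
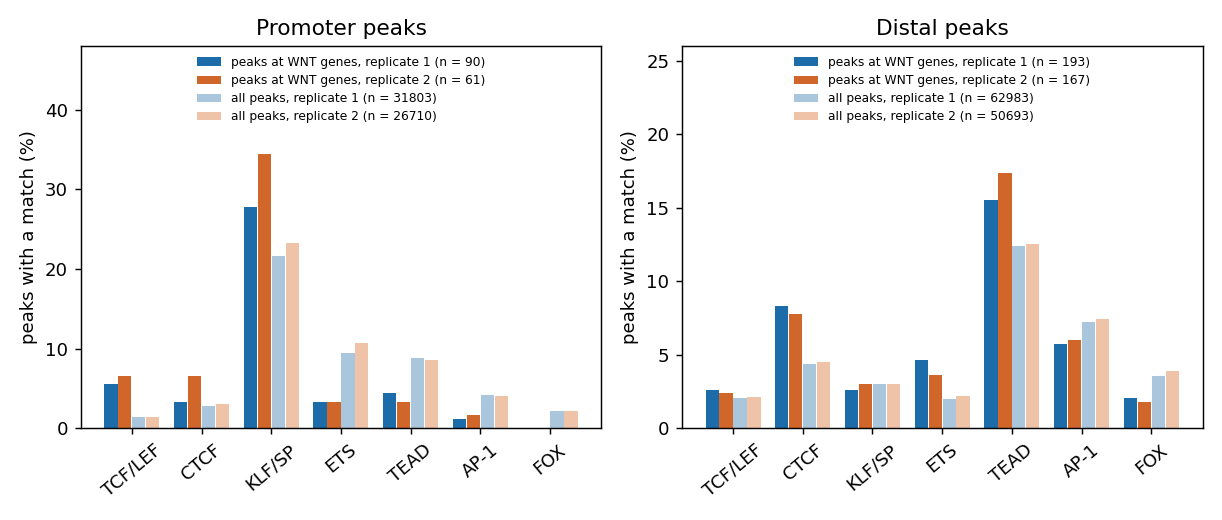
The share of peaks that hold each consensus (y axis, %) is shown for promoter peaks (left panel) and distal peaks (right panel), with peaks at WNT genes in dark bars and all peaks in pale bars for each library. The TCF/LEF share in promoter peaks is 5.56% and 6.56% at WNT genes and 1.41% and 1.38% over all, resting on 5 and 4 peaks at WNT genes.

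R-spondin promoters had the lowest ranks of any role on the median, 20.3 in replicate 1. Rspo3, a ligand of endothelial and stromal cells (chr10:29452416-29535867), had a promoter peak at percentile 23.8 in replicate 1, Rspo1 at 20.3 and Rspo2 at 4.95, and none had one in replicate 2. Bases at an FDR of 0.05 or below were listed at all 3 in both libraries, the lowest being 1.63e-06 and 0.00526 at Rspo1, 0.000423 and 0.0190 at Rspo2, and 1.19e-05 and 0.00361 at Rspo3. The larger list held a peak at all 3 in both libraries. Rspo3 had 3 distal peaks in each library, all shared, and the best lay 2.88 kb inside the gene at percentiles 74.6 and 73.3, well above its promoter peak.

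A smaller share of peaks at WNT promoters than of all promoter peaks had a partner in the other library, mainly in replicate 1. Of 90 promoter peaks in replicate 1, 62.2% overlapped a peak of replicate 2, against 78.8% of all promoter peaks, and of 61 in replicate 2, 90.2% overlapped, against 93.3%. Distal peaks at WNT genes were shared at 76.7% and 88.6%, against 71% and 87.9%. The median percentile of WNT promoter peaks was 53.5 in replicate 1, against 67.5 over all promoter peaks, and 61.2 in replicate 2, against 71.9. Their promoters were also wide in replicate 1: open promoters of WNT genes held a median of 514 bp of peak there and 292 bp in replicate 2, against 381 bp and 340 bp for all genes. A footprint was found in 67.8% and 72.1% of WNT promoter peaks, against 80.9% and 83%, and in 95.3% and 89.8% of distal ones, against 92% and 88.6%. The lower ranks of WNT promoter peaks went with these values, and their part in them was not tested.

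In the rest of the pathway, a list of 58 genes, most parts that act inside the cell had a promoter peak. In both libraries 48 of the 58 (82.8%) had a promoter peak, against 63.5% of all genes, and 6 had one in neither. All 15 cytoplasmic genes had one, led by Btrc, the recognition subunit of the ligase that marks β-catenin (percentiles 99.8 and 99.9), and Csnk1d, a casein kinase (99.6 and 98.5). Of 8 nuclear cofactor genes 7 had one, led by the co-repressors Tle4 (99.90 and 99.97) and Tle1 (99.4 and 99.7). All 7 planar polarity genes had one, led by Vangl2 (93.9 and 88.0) and Celsr3 (89.0 and 92.3), as did the 3 genes for WNT secretion and modification, led by Notum, which removes the lipid (88.8 and 82.3), and Porcn, which attaches it (85.2 and 82.2). Notum had one in only 1 library with a window of 500 bp, with the outermost 5′ end alone or with protein-coding transcripts alone. Of the 9 other co-receptor and R-spondin receptor genes 8 had one, led by Kremen1 (93.7 and 91.2) and the R-spondin receptor Lgr4 (92.3 and 92.4), and Kremen2 was without one.

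Of the genes listed as inhibitors outside the cell, 6 of 13 had a promoter peak in both libraries. Apcdd1 (percentiles 89.4 and 89.7) and Wif1 (86.1 and 83.2) led them, and Dkk4, Sfrp5, Sost and Sostdc1 had a promoter peak in neither library. Dkk3, Sfrp2 and Frzb had one in replicate 1 only. Of the 2 general target genes on the list, Ccnd1, a cyclin, was at 93.4 and 89.2 and Myc at 69.2 and 72.2, and the remaining R-spondin gene, Rspo4, was without a promoter peak in either library. Among factors outside the cell, promoter peaks in both libraries were thus found at 9 of 19 ligands, 0 of 3 R-spondins and 6 of 13 inhibitors. Rspo4 and Notum are not in these counts. Among genes for secretion and modification of the ligands, Notum included, promoter peaks in both libraries were found at 3 of 3. In the receiving cell they were found at 12 of 12 receptors, 8 of 9 other co-receptor and R-spondin receptor genes, 15 of 15 cytoplasmic genes and 7 of 8 nuclear cofactor genes. Over all protein-coding genes the share was 63.5%. In the larger list it was 12 of 19 ligands, 3 of 3 R-spondins and still 12 of 12 receptors, against 67.5% of all genes. Dkk3, Sfrp2, Frzb and the cofactor gene Tle2 also had one in both libraries there. The contrast between factors outside the cell and genes of the receiving cell thus depends on the list. These counts were not tested against each other.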

How the data were processed

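DNase-seq peaks, footprints and cut-rate calls of 2 libraries of 1 group were used, all on mm10, per the file headers and listings. Which aligner and callers were run, and with what settings, is not stated in the labels or headers. The authors deposited a smaller and a larger peak list per library, with a signal value (score) per peak of unstated scale. The deposited cut-rate files give an FDR (a p-value adjusted for multiple testing) for runs of bases at 0.05 or below. The deposited footprint files give positions and a constant p-value threshold of 0.01. No read counts are given, so depth is unknown. mm10 is the C57BL/6J genome, and the effect of CAST/EiJ alleles on the calls was not tested.

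The smaller list was used throughout. Positions were read with GRCm38 (RefSeq) and GENCODE M21, which share mm10 coordinates, and all printed sequences come from that RefSeq assembly. Promoter windows were 1 kb on each side of every transcript 5′ end, the distal flank was 20 kb, and a shared peak overlapped by at least 1 bp. Distances run from the outermost 5′ end to the peak centre or the match. Matches were exact, on either strand. Full values were given, per role, for up to 6 genes with the highest mean percentile, the 2 with the most shared distal peaks, and all with a TCF/LEF match in a shared peak. Of the other pathway genes, the 2 highest of each set and up to 3 without a promoter peak were named. The members, lists and rules were chosen with earlier results of these data known. Peak placing was checked on simulated data. Python 3.11.15, numpy 2.4.6, scipy 1.17.1, pandas 2.3.3 and matplotlib 3.10.9 were used. Other promoter windows, 5′ ends, peak lists, overlaps, consensus sequences and single libraries were tried as alternatives.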

Additional observations from a re-analysis of the deposited data

How the results depend on the processing

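The number of WNT genes with a promoter peak in both libraries, 30, ranged from 25 to 36 over 6 other settings, and was 30 to 35 with 1 library left out. It was 28 with a window of 500 bp, 34 with 2500 bp, 27 with the outermost 5′ end alone (Ctnnb1, Wnt5b and Wnt10b no longer had one in both), 30 with protein-coding transcripts alone, 36 in the larger peak list and 25 in the higher-scoring 50% of peaks. With the outermost 5′ end alone, Wnt5a also lost its promoter peak of replicate 1. All 12 receptors were open in both libraries in each of these 6 settings except the last, with 11. The 9 ligands became 7, 12, 7, 9, 12 and 5 over these settings in the same order, and the 0 R-spondin genes became 1 at 2500 bp and 3 in the larger list. Counts that moved by over 1.5 times or beyond their interval were the 148 shared distal peaks, 84 with no flank, 375 with 100 kb, 237 in the larger list and 82 in the higher-scoring 50%. The medians over WNT genes were then 1 and 1, 13 and 10, 8 and 5, and 2 and 1 in replicates 1 and 2, and those over all genes 0 and 0, 8 and 6, 3 and 2, and 1 and 0. With 1 library left out the distal count was 167 to 193. The share of peaks at WNT genes found in the other library was 72.1% in replicate 1 and 89.0% in replicate 2, and with 50% overlap 63.3% and 78.5%. In the larger list it was 93.5% in replicate 2. The longer consensus CCTTTGAT had 1 match in place of 7, at Tcf7, and CTTTGAA had 7. When 1 library was left out, 8 to 10 peaks of the other held CTTTGAT, those shared by both libraries included. Footprints in peaks at WNT genes averaged 660.5, with 566 to 755 in 1 library. The 48 other pathway genes became 43 to 52 under alternatives chosen after seeing the data. The cause of these shifts was not tested beyond the construction of each setting. No paired analysis was possible because the series has 1 group. Depth is unknown, so the absence of a peak does not show that a promoter is closed.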

Other observations

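The variant TCF/LEF consensus CTTTGAA also had 7 matches at WNT genes in peaks of both libraries, of which 3 were at Axin2. It was in 5.56% and 8.20% of promoter peaks at WNT genes, 5 peaks in each library, against 2.02% and 2.13% of all promoter peaks. In distal peaks it was in 3.11% and 1.80%, against 3.38% and 3.56% of all, so no higher than the background there. At Lef1 a match lay 4.37 kb upstream of the outermost 5′ end, in a peak at percentiles 46.9 in replicate 1 and 52.8 in replicate 2, overlapped by a footprint in both (chr3:131106092-131106120, minus strand, consensus in capitals).
Lef1 upstream: ggcggcgcggcCTTTGAAgtcgcggcggc
The other matches were at Lrp6, Wnt5b and Wnt11. Some matches to the main consensus CTTTGAT lay inside a peak of 1 library only. In replicate 1 these were at Wnt2, 23.1 kb inside the gene at percentile 26.7, and at Wnt11 in 2 peaks at 64.2 and 52.0. In replicate 2 it was at Rnf43, at 25.7. The Wnt11 match at 64.2 lay in a promoter peak, at −48 bp. That peak overlapped a replicate 2 peak that did not hold the match. In replicate 2 a footprint covered this match, and another overlapped part of the Wnt11 match at 52.0.

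At Fzd1, Fzd2, Fzd4, Fzd7 and Fzd8 the best shared distal peak lay in a coding exon of the gene, as it did at Wnt10b. These Fzd genes are short, from 3.66 kb at Fzd2 to 8.78 kb at Fzd4, which leaves little other sequence inside them. The same share over all protein-coding genes was not computed, so the placing is not shown to be particular to Fzd genes. At Fzd7 it was at percentiles 85.4 in replicate 1 and 82.7 in replicate 2, and at Fzd8 at 81.7 and 75.9. The ranks were low at Fzd1, with 48.8 and 15.3, Fzd2, with 34.1 and 15.3, and Fzd4, with 14.3 and 27.6.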
